A study of Mus musculus with 162 samples.

Results

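Cheek skin and the trigeminal ganglion that supplies it were compared in control mice, as the tissues stood before any disease model had begun. All samples labelled wild-type, no_injection, ethanol and Day_1 were taken: 4 of cheek skin and 4 of trigeminal ganglion, 8 of the 162 samples in the series. The mice were adult male C57BL/6 without a further allele or injection, aged 8 to 12 weeks, and their shaved cheek had received 20 µL of ethanol, the vehicle of the vitamin D analog MC903, 6 h before dissection. No sample of MC903-treated mice was used in this comparison, so every difference described here is between tissues under the same vehicle. Skin was homogenized whole and ganglia were taken from the treated side. Whether skin and ganglion with the same replicate number came from the same mouse, and how many mice went into a library, was not given in the sources used here, so the spread between samples may be technical in part. Poly(A) RNA was sequenced as single-end reads of 50 bases, and 21740153 to 23022600 reads per skin sample and 16624249 to 20917987 per ganglion sample had been assigned to genes.

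Cheek skin is a layered barrier. Basal keratinocytes divide on the basement membrane, suprabasal keratinocytes fill with keratins and desmosomes, and cornified cells are sealed with cross-linked protein and lipid. Hair follicles, sebaceous glands, melanocytes, dermal fibroblasts, vessels, fat and the thin muscle beneath the skin lie in the same piece. The trigeminal ganglion holds the cell bodies of the sensory neurons of the face, each wrapped in satellite glia, with axons myelinated by Schwann cells. The axons of these neurons end in the skin, but their nuclei and most of their RNA are in the ganglion. Keratinocytes and sensory neurons are linked by secreted factors and their receptors, among them the neurotrophins and the cytokines known for itch. In whole tissue, fewer cells of a type and less RNA per cell cannot be told apart.

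The labels were checked against marker genes. Krt14, the type I keratin of basal keratinocytes, was at 1324, 1238, 1025 and 1038 counts per 1000000 reads (cpm, scaled by the trimmed mean of M values, TMM) in skin replicates 1 to 4 and at 5.29, 7.41, 5.64 and 5.42 cpm in ganglion replicates 1 to 4. Prph, the neuronal intermediate filament peripherin, was at 2.97, 2.16, 2.33 and 2.74 cpm in the skin samples and at 724, 848, 829 and 956 cpm in the ganglion samples. Both markers matched the tissue label in 8 of 8 samples, with no overlap. Xist was under 1 cpm and Ddx3y, a Y-linked RNA helicase, at 82.4 to 138 cpm in all 8, and the label is male. Sample-to-sample correlation of log2 cpm over 20037 genes was 0.971 to 0.993 within skin, 0.976 to 0.993 within ganglion and 0.628 to 0.681 between the tissues, given here as a description.

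Samples within a tissue were not alike in what else was dissected. Skin replicate 4 held RNA of the salivary gland: Amy1, salivary amylase, was at 42.7, 40.1, 1889 and 36653 cpm in skin replicates 1 to 4, and the 9 tested salivary markers summed to 119.2, 94.5, 6982 and 143338 cpm against 120 to 215 cpm in the ganglion samples. The parotid gland lies under the cheek, and skin replicate 3 carried a smaller share of the same genes. All 9 salivary markers passed the test below as higher in skin, and 2 of 9 did without skin replicate 4, where the log2 difference of Amy1 was 3.40 and was not called. Ganglion replicate 1 stood apart as well, with pituitary markers summing to 4185 cpm against 246, 364 and 95.9 cpm in replicates 2 to 4, markers of glia of the central nervous system to 706 against 210, 448 and 88.95 cpm, and neutrophil markers to 128.8 against 18.2, 22.15 and 9.88 cpm. Counts below that moved by over 1.5 times without either of these samples are given in both ways.

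A low level of the strongest genes of each tissue was present in every sample of the other. The 267 genes over 100 cpm in skin and over 30-fold higher there stood, at the median, at 0.573%, 0.894%, 0.547% and 0.604% of their skin level in the 4 ganglion samples, and none was under 0.318% in the mean of the 4. The 275 such genes of the ganglion stood at 0.843%, 0.890%, 0.839% and 0.878% of their ganglion level in the 4 skin samples. Both sets were chosen for their low level in the other tissue, which bounds these shares from above. The part of such a background in the folds was not tested, and of such genes the level in their own tissue is the firmer value.

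Of 25513 genes with at least 10 reads over the 8 samples, 16905 differed between the tissues by edgeR's quasi-likelihood test at a Benjamini-Hochberg adjusted p under 0.05, which is 66.3% of those tested, 8481 higher in skin and 8424 higher in the ganglion. Because so many genes differed, a stricter call was used throughout: the same model's test against a 2-fold difference, adjusted in the same way. By that test 4861 genes (19.1%) were higher in skin and 4688 (18.4%) higher in the ganglion. A gene was called at a like level where the 95% interval of its fold difference lay within 2-fold in either direction and all 8 samples were at 1 cpm or above, which held for 6090 genes (23.9%). The remaining 9874 were too low or too variable for either call, or lay between them. The samples of the tissues did not overlap for 15971 genes (62.6%), and the median log2 difference, skin minus ganglion, over all genes tested was -0.022. At 1 cpm or above in all 8 samples were 14114 genes, against 16054 in all 4 skin samples and 15894 in all 4 ganglion samples. The classes were nearly equal in size in each direction, also among the 17603 protein-coding genes with 3691 higher in skin, 3688 higher in the ganglion and 5377 at a like level.

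**Figure D1:**
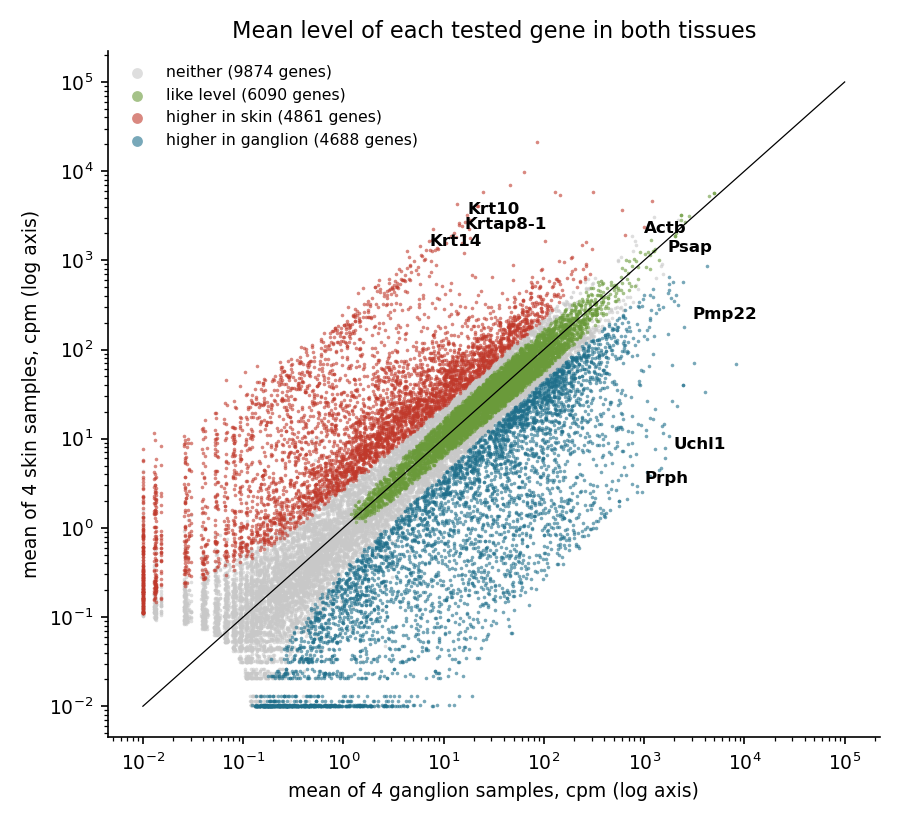
Each point is a tested gene, by its mean cpm over 4 ganglion samples (x, log axis) and 4 skin samples (y, log axis), coloured by its call; means under 0.01 cpm are drawn at 0.01 and the line marks equal levels. Genes at a like level fill a band along the line, and the calls of the tissues, 4861 and 4688 genes, spread about equally to either side.

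Hair proteins led the skin list. Ranked by transcripts per 1000000 (TPM, which allows comparison between genes), the 10 highest protein-coding genes that passed as higher in skin and did not overlap were Krtap8-1, Krtap21-1, Eef1a1, Prr9, Krt27, Krtap7-1, Krtap22-2, Krtap15, Perp and Krt10. Krtap8-1, a keratin-associated protein of the hair shaft, had 7617 ± 4323 TPM (SD, n = 4) in skin and 81.3 ± 26.96 TPM in the ganglion. Perp, a desmosomal membrane protein of stratified epithelia, had 3524 ± 592 and 50.2 ± 17.6 TPM. The corresponding 10 ganglion genes included Gh, Pmp22, Uchl1, Hbb-bt, Hbb-bs, Anxa5, Calm2 and Cpe, that is a pituitary hormone, a myelin protein, the neuronal ubiquitin hydrolase, globins, an annexin, calmodulin and a peptide-processing enzyme. Uchl1 had 3479 ± 354 TPM in the ganglion and 9.47 ± 0.618 TPM in skin. Gh rested on ganglion replicate 1, at 3215 cpm there against 180, 311 and 70.8 cpm in replicates 2 to 4 and 1.82 to 3.11 cpm in skin.

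Promoters are printed for the genes of highest TPM in each class, up to 4 per class whose RefSeq start lay within 50 bases of the GENCODE start, because CpG content and the TATA box are compared over all promoters below. The 120 bases before the start given by RefSeq (build GRCm38.p6) are printed 5′ to 3′ on the gene's strand, with capitals for 4 motifs, each searched on both strands. These are TATAAA, the core promoter element known as the TATA box, CCAAT, which is bound by the factor NF-Y, GGGCGG, which is bound by Sp1 and related factors, and TGANTCA, which is bound by the AP-1 factors. A match is a run of letters and not a measured site. Among skin genes, Krtap8-1 (chr16:89487953-89488072, minus strand), Prr9 (chr3:92123948-92124067, minus strand), Krt27 (chr11:99351119-99351238, minus strand) and Krtap22-2 (chr16:89010760-89010879, minus strand) each held a TATA box close to the start, which most skin promoters did not, and 2 to 4 CpG dinucleotides.
Krtap8-1: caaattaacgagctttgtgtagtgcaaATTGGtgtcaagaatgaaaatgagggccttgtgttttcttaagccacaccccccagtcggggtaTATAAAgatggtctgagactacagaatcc
Prr9: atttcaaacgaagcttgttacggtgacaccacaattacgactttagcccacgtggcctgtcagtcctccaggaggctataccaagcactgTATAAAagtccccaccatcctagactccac
Krt27: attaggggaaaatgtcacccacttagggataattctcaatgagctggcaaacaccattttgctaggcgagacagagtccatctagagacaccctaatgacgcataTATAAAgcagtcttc
Krtap22-2: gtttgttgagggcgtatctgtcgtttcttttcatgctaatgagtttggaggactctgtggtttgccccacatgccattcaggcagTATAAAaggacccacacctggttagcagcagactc
The ganglion genes Pmp22 (chr11:63128862-63128981, plus strand), Uchl1 (chr5:66676001-66676120, plus strand) and Anxa5 (chr3:36475888-36476007, minus strand) held no TATA box in this stretch and 1, 4 and 8 CpG dinucleotides.
Pmp22: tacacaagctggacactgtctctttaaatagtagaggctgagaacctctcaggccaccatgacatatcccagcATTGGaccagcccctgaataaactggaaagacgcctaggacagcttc
Uchl1: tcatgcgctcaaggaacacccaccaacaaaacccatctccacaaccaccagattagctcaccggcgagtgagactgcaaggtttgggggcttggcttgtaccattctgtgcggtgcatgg
Anxa5: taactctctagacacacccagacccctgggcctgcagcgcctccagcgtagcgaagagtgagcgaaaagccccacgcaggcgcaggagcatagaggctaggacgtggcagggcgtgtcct
Among nuclear genes at a like level, Actg1 (chr11:120348496-120348615, minus strand), Psap (chr10:60277508-60277627, plus strand), Cox6a1 (chr5:115348959-115349078, minus strand) and Atp5b (chr10:128083187-128083306, plus strand) held no TATA box either, and 10 to 19 CpG dinucleotides. Actg1, Cox6a1 and Atp5b each held a GC box and a CCAAT box.
Actg1: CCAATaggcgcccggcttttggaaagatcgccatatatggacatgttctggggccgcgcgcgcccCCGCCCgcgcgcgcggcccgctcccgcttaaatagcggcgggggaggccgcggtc
Psap: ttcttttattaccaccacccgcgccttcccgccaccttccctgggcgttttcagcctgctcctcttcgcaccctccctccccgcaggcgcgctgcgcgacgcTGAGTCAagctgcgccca
Cox6a1: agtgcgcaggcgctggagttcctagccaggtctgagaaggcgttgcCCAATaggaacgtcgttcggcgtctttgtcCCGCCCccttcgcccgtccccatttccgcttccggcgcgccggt
Atp5b: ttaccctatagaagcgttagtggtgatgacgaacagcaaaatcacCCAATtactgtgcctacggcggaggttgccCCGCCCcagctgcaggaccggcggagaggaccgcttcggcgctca

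The epidermis was called nearly whole. All 14 suprabasal genes and all 20 genes of the cornified envelope and barrier were higher in skin, with median log2 differences of 7.55 and 7.46, and 9 of 12 basal keratinocyte genes were, with a median of 5.24. The partner keratins of the basal layer stood at similar levels, Krt14 at 1156 ± 148 cpm (SD, n = 4) and Krt5 at 1640 ± 233 cpm in skin against 5.94 ± 0.990 and 7.20 ± 0.843 cpm in the ganglion (log2 difference 7.60 ± 0.15 and 7.83 ± 0.15, SE). Krt10, the type I keratin that replaces Krt14 as cells leave the basal layer, was at 2069, 3150, 2604 and 2741 cpm in skin and at 13.1, 17.7, 12.01 and 14.2 cpm in the ganglion. Its lowest skin sample was over 100 times its highest ganglion sample, and edgeR's quasi-likelihood 2-fold test gave a Benjamini-Hochberg adjusted p of 1.12e-09. Lor, which encodes loricrin, the main protein of the cornified envelope, was at 135, 329, 260 and 255 cpm in skin and at 0.819 to 1.15 cpm in the ganglion. Casp14, the protease that processes filaggrin, was at 101 to 132.4 cpm in skin and at 0.314 to 0.757 cpm in the ganglion. Flg itself, filaggrin, had few reads assigned, at 1.11, 0.498, 1.17 and 0.620 cpm in skin and 0 reads in all 4 ganglion samples. That is at least 5.20-fold higher in skin against a floor of 3 reads per ganglion sample. Whether so low a count follows the level of Flg RNA or how reads were mapped and counted was not tested.

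The 3 basal genes that were not called had values in both tissues. Itga6, the laminin receptor subunit of hemidesmosomes, was at 253, 308, 275 and 260 cpm in skin and at 150, 210, 218 and 240 cpm in the ganglion, a like level. Its hemidesmosome partner Col17a1, by contrast, was at 364 to 640 and 1.413 to 2.97 cpm (log2 7.91 ± 0.23). Dst, a linker protein with epithelial and neuronal isoforms that these gene counts do not separate, was at 87.7 ± 15.6 cpm in skin and 171 ± 26.5 cpm in the ganglion and passed neither call. Of 16 genes of barrier lipid synthesis 11 were higher in skin, among them Abca12, the lipid transporter of lamellar granules, at 203 to 258 cpm against 1.26 to 2.22 cpm. Ugcg, which makes glucosylceramide, was among the 4 at a like level, with 74.1 ± 12.7 cpm in skin and 97.8 ± 17.3 cpm in the ganglion.

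All 20 epidermal transcription factors were higher in skin, with a median log2 difference of 5.60. Trp63, the regulator of stratified epithelium, was at 351, 336, 322 and 292 cpm in skin and at 2.83, 2.87, 2.34 and 2.76 cpm in the ganglion (log2 6.91 ± 0.11). Klf4, needed for barrier formation, was at 253 ± 10.9 against 6.40 ± 1.39 cpm, and Sox9, a factor of hair follicle stem cells, at 144 ± 17.96 against 7.87 ± 3.50 cpm. Grhl3, which acts in terminal differentiation, differed least of those named, by 3.12 ± 0.19 on the log2 scale.

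Hair genes were among the most abundant in skin and varied between samples. Of 22 hair follicle genes 21 were higher in skin (median log2 7.29), and their summed level was 46788 cpm in skin replicate 1 and 17297 to 26933 cpm in replicates 2 to 4, against 153 to 262 cpm in the ganglion. Krt27, a keratin of the inner root sheath, was at 4755, 1961, 2006 and 2588 cpm in skin replicates 1 to 4. Gprc5d, a receptor of the hair-forming keratinocytes, was at 583, 131.4, 131.2 and 267 cpm, so that replicate 1 was again the highest. All 56 keratin-associated protein genes, which encode the matrix between hair keratin filaments, were higher in skin, with a median log2 difference of 7.31, and in vehicle skin of day 5 32 of 56 were. The summed hair follicle level on day 5 (cpm without TMM scaling) ran from 1117 to 16002 cpm, below the day 1 range, while suprabasal genes stayed at 12627 to 16609 cpm against 14578 to 16364 cpm on day 1. The hair cycle stage of the mice was not given in the sources used here.

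Shh went against the rest of the hair list. This signal of the hair matrix was at 10.8, 13.2, 16.9 and 9.87 cpm in skin and at 10.1, 12.2, 12.2 and 21.2 cpm in the ganglion, a like level (log2 difference -0.14, 95% interval -0.69 to 0.41). Sebaceous genes were less sharply divided, with 11 of 13 higher in skin and a median log2 difference of 2.65. Scd1, which desaturates fatty acids in sebum and in myelin, was at 2996 to 4797 cpm in skin and still at 482 to 715 cpm in the ganglion (6.17-fold). Fasn, fatty acid synthase, was at 618 ± 193 and 273 ± 24.4 cpm and did not pass.

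Dermis, fat and muscle were present in every skin sample. Collagen I and III led the 16 fibroblast genes, of which 14 were higher in skin (median log2 2.97). Col1a1 was at 3158, 6787, 7070 and 4458 cpm in skin and at 220, 171, 91.7 and 95.1 cpm in the ganglion (log2 5.21 ± 0.34), and the fibroblast sum was lowest in skin replicate 1, where the hair sum was highest. Dcn, the proteoglycan decorin, was shared more evenly, at 1450 to 2244 cpm in skin and 388 to 948 cpm in the ganglion, 2.98-fold apart. All 12 adipocyte genes (median 6.80), all 16 skeletal muscle genes (median 6.76) and all 9 melanocyte genes (median 4.84) were higher in skin. Adipoq, the fat hormone adiponectin, was at 52.6, 74.7, 73.6 and 95.6 cpm in skin and 0.420 to 0.942 cpm in the ganglion. Acta1, skeletal muscle actin, was at 1207, 1628, 1757 and 1615 cpm and 10.5 to 20.7 cpm. Dct, an enzyme of melanin synthesis, was the steadiest of those named, at 167 to 182 cpm in skin and 0.628 to 1.02 cpm in the ganglion.

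Endothelial genes differed less than mural cell genes. Of 12 endothelial genes 2 were higher in skin, Pecam1 (41.6 ± 5.66 against 9.50 ± 1.38 cpm) and Tek, an angiopoietin receptor (28.02 ± 1.42 against 8.17 ± 1.61 cpm), while 5 were at a like level and 5 passed neither call, with a median log2 difference of 0.89. Cldn5, the endothelial claudin, was at 12.7, 16.8, 18.5 and 20.1 cpm in skin and at 19.8, 18.7, 24.2 and 20.0 cpm in the ganglion, a like level. Of 10 mural cell genes 8 were higher in skin (median 2.48), among them Acta2, smooth muscle actin, at 158 to 190 cpm against 4.197 to 12.6 cpm.

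Immune markers were mostly higher in skin, with exceptions that were higher in the ganglion. Macrophage genes were higher in skin in 9 of 12 cases (median log2 2.42), as for Cd163, a scavenger receptor, at 80.4 to 149 cpm against 4.97 to 18.3 cpm. Cx3cr1, the fractalkine receptor of microglia-like and nerve-associated macrophages, was the 1 that went the other way, at 1.99, 2.12, 2.17 and 4.03 cpm in skin and at 13.03, 12.7, 9.61 and 6.50 cpm in the ganglion (log2 -2.02 ± 0.29). In the vehicle samples of day 5, 0 of the 12 macrophage genes were called higher in the ganglion. The Langerhans and dendritic cell list had 9 of 10 higher in skin (median 2.99). Cd207, langerin, was at 5.63 to 7.51 cpm in skin and at most 0.162 cpm in the ganglion. Flt3, a growth factor receptor of dendritic cell precursors, was higher in the ganglion instead, at 24.02 to 37.5 cpm against 2.09 to 4.36 cpm.

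Mast cell proteases were read in skin as a group. Mcpt4, Cma1 and Cpa3 were at 32.6 ± 5.48, 15.8 ± 4.94 and 28.5 ± 5.03 cpm in skin and at 2.65 ± 1.71, 1.42 ± 0.487 and 2.47 ± 1.02 cpm in the ganglion. Of the 9 mast cell genes 5 were higher in skin, and Kit, the stem cell factor receptor, passed neither call at 38.8 ± 5.09 cpm in skin and 73.1 ± 11.6 cpm in the ganglion. Of 10 T cell genes 6 were higher in skin (median 2.85), 5 without skin replicate 4. Trdc, the delta chain constant region of gamma-delta T cells, which include the T cells of mouse epidermis, was at 4.73 to 6.22 cpm in skin and 0.180 to 0.487 cpm in the ganglion. Trac, the alpha chain constant region, was at 1.07, 1.16, 0.875 and 11.5 cpm in skin replicates 1 to 4 and did not pass, and the high sample was the one with salivary RNA.

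Red cell genes were mostly higher in the ganglion, while the neutrophil calls rested largely on ganglion replicate 1. Neutrophil markers summed to 128.8, 18.2, 22.15 and 9.88 cpm in ganglion replicates 1 to 4 and to 22.8 to 32.8 cpm in skin. Only replicate 1 lay above the skin samples, and the other ganglion samples lay below them. Of 10 neutrophil genes 5 passed as higher in the ganglion, and 3 did without skin replicate 4. Without ganglion replicate 1, 1 passed as higher in the ganglion and 1 as higher in skin. S100a9, a calprotectin subunit, was at 22.1, 1.73, 2.94 and 0.563 cpm in ganglion replicates 1 to 4 and at 0.417, 0.207, 0.250 and 1.71 cpm in skin. S100a9 passed although its groups overlap, and was not called without ganglion replicate 1 or without any 1 of skin replicates 1 to 3 (log2 -3.32 to -1.47). Of 6 erythroid genes 4 were higher in the ganglion (median -2.03), as for Hbb-bt, a beta globin, at 629, 221, 381 and 919 cpm there and 164, 87.7, 71.98 and 189 cpm in skin (4.19-fold), which was not called without ganglion replicate 4 (log2 -1.70). Slc4a1, the red cell anion exchanger, had a log2 difference of 1.25 and passed as higher in skin without ganglion replicate 1, at 2.29.

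**Figure D2:**
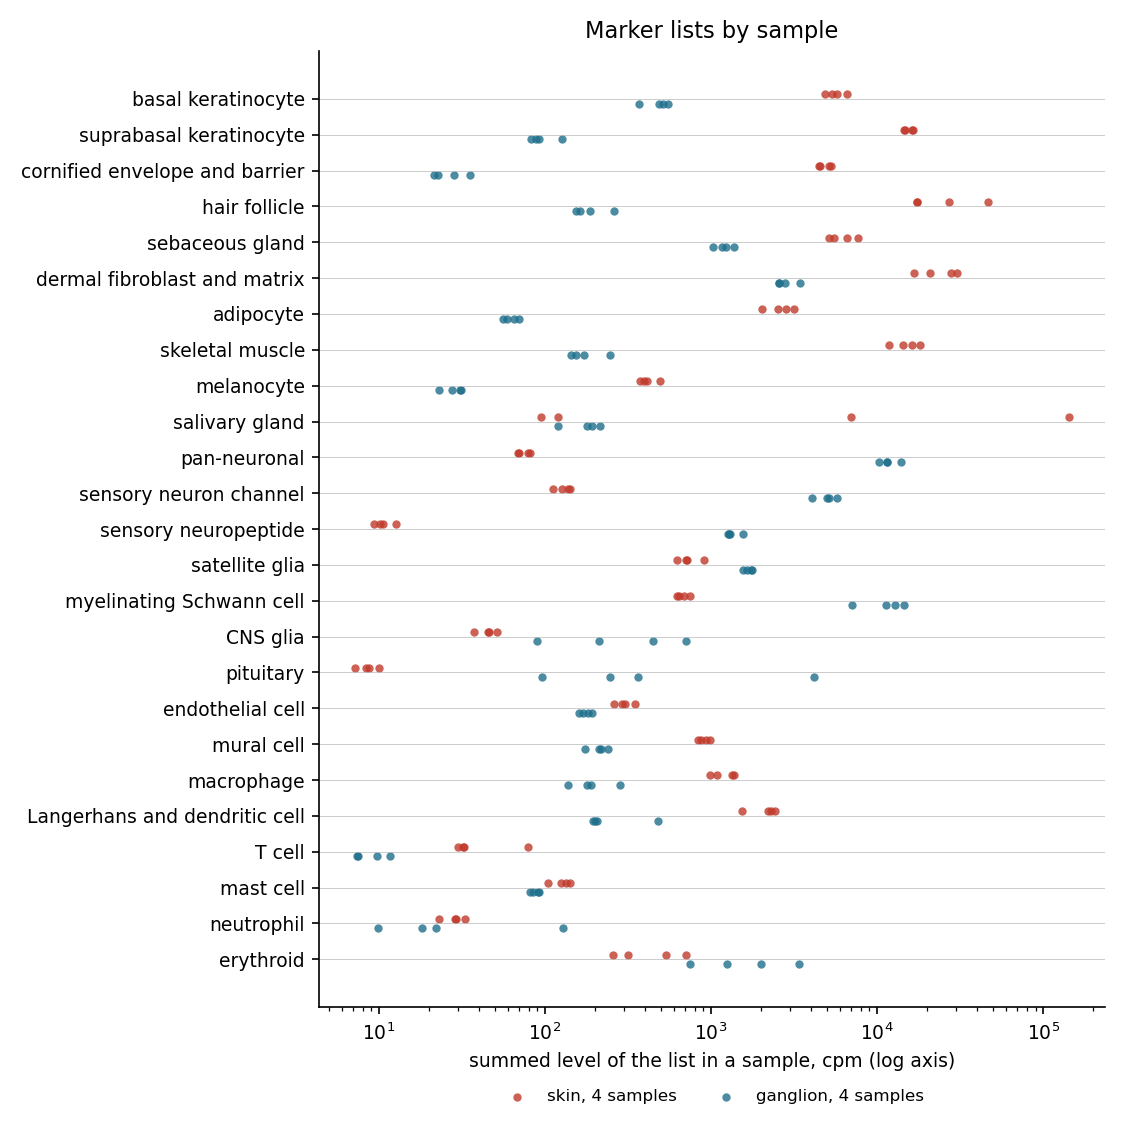
Each point is the summed cpm (x, log axis) of a marker list in a sample, 4 skin and 4 ganglion samples per list. Epidermal, adipose and muscle lists in skin and neuronal lists in the ganglion are separated by over 8-fold, the endothelial and mast cell sums lie nearer together without overlap, and single samples stand apart for the salivary gland (143338 cpm) and pituitary (4185 cpm) lists.

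Neuronal genes differed widely between the tissues. All 18 pan-neuronal genes, all 21 sensory neuron channels and 13 of 14 neuropeptides were higher in the ganglion, with median log2 differences of -7.47, -7.10 and -7.72. Nefl, the light neurofilament, was at 1148, 1358, 1430 and 1716 cpm in the ganglion and at 4.68, 4.19, 4.46 and 4.50 cpm in skin. The channels of pain fibres were among the highest. Scn10a, the sodium channel Nav1.8 of nociceptors, was at 485, 689, 694 and 800 cpm in the ganglion and 1.91 to 2.55 cpm in skin (log2 -8.29 ± 0.18, edgeR quasi-likelihood 2-fold test, Benjamini-Hochberg adjusted p = 5.18e-10), and Scn9a, Nav1.7, was at 432, 565, 639 and 630 cpm and 1.58 to 1.90 cpm.

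The thermosensors and mechanosensors could be ordered by TPM, since they differ in length. Trpm8, the cold receptor, had 132.8 ± 18.9 TPM in the ganglion, Piezo2, the touch channel, 124.4 ± 22.3, Trpv1, the capsaicin and heat receptor, 69.5 ± 14.2, and Trpa1, the irritant receptor, 57.97 ± 11.8. The ranges of mean ± SD of Trpm8 and Piezo2 overlapped, as did those of Trpv1 and Trpa1, but the genes were read in the same libraries and their difference within a library was not tested. Trpv1 was the channel of these with the highest skin level against its own ganglion level, at 2.08 to 2.45 cpm in skin and 51.96 to 93.2 cpm in the ganglion (31.8-fold), while Trpa1 was at 0.0416 to 0.185 cpm and 51.5 to 92.4 cpm (503-fold). Cacna2d1, a calcium channel subunit also used by muscle, differed least of the list, at 344 ± 39.2 against 93.2 ± 14.9 cpm. Kcnk18, a background potassium channel, was at 16.9 to 25.9 cpm in the ganglion and was read at 0 to 0.0517 cpm in skin.

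Receptors known for itch and pain were split. Of 18 tested 12 were higher in the ganglion, 1 was higher in skin and 2 were at a like level. The Mrgpr receptors of itch and pain neurons were read almost wholly in the ganglion. Mrgpra3, the chloroquine receptor, was at 4.81, 8.71, 6.66 and 10.5 cpm there and at 0 reads in all 4 skin samples, at least 56.5-fold higher against the floor of 3 reads, and Mrgprd, a marker of nonpeptidergic neurons, was at 36.2 to 67.2 cpm there and 0.0416 to 0.124 cpm in skin. Il31ra, the receptor of the itch cytokine interleukin-31, was at 22.6, 33.3, 30.9 and 41.9 cpm in the ganglion and at 10.99, 31.9, 16.2 and 7.91 cpm in skin, and passed neither call. Its signalling partner Osmr, also the oncostatin M receptor, was at a like level, 42.3 ± 3.95 cpm in skin and 33.1 ± 5.69 cpm in the ganglion. Npr1, the natriuretic peptide receptor, was the member higher in skin, at 20.6 to 28.99 cpm against 2.65 to 3.60 cpm (7.86-fold). Lpar5, a lysophosphatidic acid receptor, was at a like level near 5 cpm.

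Peptides were ganglion genes almost throughout. Calca, which encodes CGRP, was at 433, 620, 626 and 548 cpm in the ganglion and at 1.79 to 2.32 cpm in skin, and Tac1, the precursor of substance P, at 241 to 265 cpm and 0.498 to 1.396 cpm. Nppb, a peptide of itch neurons, was low at 1.67 to 2.92 cpm in the ganglion and 0.278 to 0.879 cpm in skin. Npy, which is known in sympathetic fibres, was the exception at 0.705 to 2.41 cpm in skin and 0.0600 to 1.413 cpm in the ganglion, with overlapping groups. Scg2, a secretogranin also made in the pituitary, was at 498 cpm in ganglion replicate 1 against 146 to 167 cpm in replicates 2 to 4, and Sst, somatostatin, at 23.2 cpm against 2.60 to 2.81 cpm. Ganglion replicate 1 was the sample with pituitary RNA, and the part of that RNA in these values was not tested.

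Of 19 tested sensory neuron transcription factors 16 were higher in the ganglion (median -7.22). Pou4f1, which sets sensory identity, was at 77.5, 109, 106 and 120 cpm in the ganglion and at 1.72, 0.913, 0.750 and 0.775 cpm in skin. Isl1, its partner, was at 109 to 126.1 cpm and 2.18 to 3.71 cpm. The 3 at a like level were Runx1, Runx3 and Shox2, of which Runx1 and Runx3 have known roles both in neurons and in skin or its immune cells. Runx1 was at 67.7, 47.04, 43.2 and 43.7 cpm in skin and at 53.6, 62.4, 62.7 and 88.1 cpm in the ganglion.

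Glia separated less cleanly than neurons. Of 16 genes of myelinating Schwann cells 13 were higher in the ganglion (median -4.84). Pmp22, whose copy number is altered in hereditary neuropathy, was at 1518 to 3252 cpm there and 162 to 193 cpm in skin (14.1-fold). Egr2, the myelination factor Krox20, and Fa2h, a fatty acid hydroxylase of myelin and epidermal lipid, were higher in skin instead, at 50.4 to 68.3 against 15.7 to 28.7 cpm and 193 to 281 against 33.1 to 64.2 cpm. Sox10, the factor of glia and melanocytes, was at 41.97 to 67.96 cpm in the ganglion and at 2.55, 3.94, 3.67 and 21.1 cpm in skin replicates 1 to 4, highest in the sample with salivary RNA.

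Satellite glia markers were higher in the ganglion in 8 of 12 cases (median -3.43). Fabp7, a fatty acid binding protein of satellite glia, was at 116.3 to 146 cpm in the ganglion and 0.416 to 1.19 cpm in skin. Erbb3, the neuregulin receptor, was at a like level (1.44-fold higher in skin, log2 difference 0.53 ± 0.17, SE), with 106 ± 24.6 cpm in the ganglion. Slc1a3, a glutamate transporter, was at 131.2, 24.3, 29.9 and 21.6 cpm in ganglion replicates 1 to 4 and 25.9 to 38.3 cpm in skin, so that replicate 1 alone was above skin. Of 10 markers of central nervous system glia 9 passed as higher in the ganglion. Gfap, which satellite glia also express, was at 25.5, 71.5, 85.1 and 16.4 cpm, and Slc1a2, the main glutamate transporter of astrocytes, at 488, 39.0, 177 and 24.5 cpm, against 0.556 to 0.879 and 1.38 to 1.95 cpm in skin. Of 9 pituitary genes 8 were higher in the ganglion, and all 4 ganglion samples were above all 4 skin samples for Gh and for Prl, prolactin, at 534, 28.7, 32.4 and 11.8 cpm against 0.232 to 0.708 cpm. Of 7 tested genes of cartilage and bone 3 were higher in the ganglion and 1 in skin.

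Intermediate filaments divided the tissues member by member. Of 51 keratins tested 46 were higher in skin and 1, Krt222, in the ganglion, at 36.9, 37.8, 43.05 and 40.7 cpm there and 0.830 to 1.499 cpm in skin. Of 10 filaments of types III and IV 8 were higher in the ganglion (median -6.15) and 1 in skin, Des, the muscle desmin, at 208 to 323 cpm against 1.74 to 4.002 cpm. Vim, vimentin, of fibroblasts, endothelium and glia, was the filament of both tissues, at 447, 654, 692 and 573 cpm in skin and 273, 402, 367 and 439 cpm in the ganglion, 1.598-fold apart with neither call. Voltage-gated sodium channels split likewise, with 13 of 14 higher in the ganglion and Scn4a, the skeletal muscle channel, higher in skin at 44.3 to 74.5 cpm against 6.54 to 8.81 cpm. Potassium channels of the voltage-gated group were higher in the ganglion in 17 of 22 cases, synaptotagmins in 13 of 17 and protocadherins in 51 of 68, where the 1 higher in skin, the endothelial Pcdh12, was not called without skin replicate 3 or 4 or ganglion replicate 1, 3 or 4 (log2 1.47 to 1.57).

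**Figure D3:**
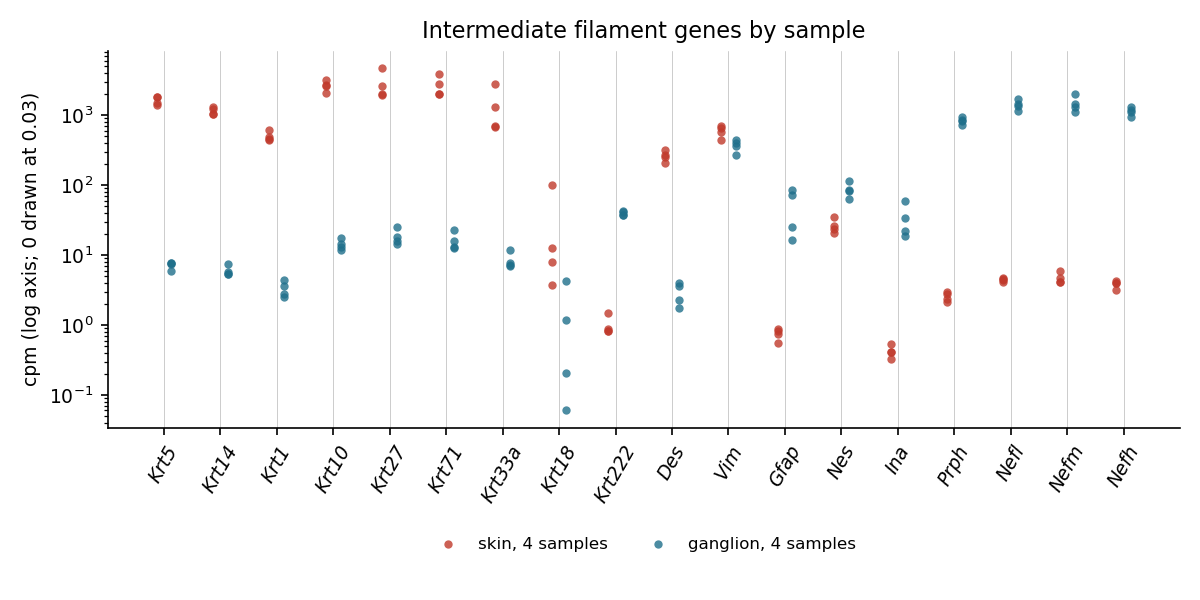
Points are single samples, 4 of skin and 4 of ganglion for each intermediate filament gene (y, cpm on a log axis). Krt5 to Krt33a lie over 100-fold higher in skin, Prph and the neurofilaments over 100-fold higher in the ganglion, and Vim lies within 2-fold between the tissue means.

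Hox genes gave an almost complete split. The trigeminal ganglion derives from cranial neural crest and placode, cells that are largely without Hox expression. The origin of the cells of cheek skin was not examined, and the part of origin in the split was not tested. Of 39 Hox genes 24 had enough reads to test, and 20 of those were higher in skin (median log2 4.74, or 4.03 with genes at 0 in a tissue set to their bound). Hoxc13, which acts in the hair follicle and nail, was at 180, 97.8, 110 and 135 cpm in skin and at 0.300 to 1.14 cpm in the ganglion. Hoxc8 was at 2.46 to 3.36 cpm in skin and at 0 reads in all 4 ganglion samples, at least 17.1-fold higher in skin. Hoxd1 was the single Hox gene higher in the ganglion, at 15.6, 17.96, 24.7 and 30.04 cpm there and at 0, 0, 0.250 and 0.207 cpm in skin, and it is known in mouse nociceptors.

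Collagens and claudins had members called in each direction. Of 44 collagens 21 were higher in skin and 10 in the ganglion, against 19.1% and 18.4% of all genes. Col28a1, a collagen of peripheral nerve, was at 70.7 to 110 cpm in the ganglion and 4.86 to 5.94 cpm in skin (17.9-fold). Col25a1, a transmembrane collagen of neurons, was at 53.6 cpm in ganglion replicate 1, 12.2 to 18.01 cpm in replicates 2 to 4 and 0.913 to 1.29 cpm in skin. Of 19 claudins, the proteins of tight junctions, 12 were higher in skin, or 8 without the salivary skin replicate 4, and 3 in the ganglion. The ganglion counts of both families were near the share of all genes. Cldn1, on which the epidermal water barrier depends, was at 412 to 557 cpm in skin and 15.9 to 38.6 cpm in the ganglion, and Cldn19, the Schwann cell claudin, at 2.998 to 3.69 and 101 to 188 cpm.

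Secreted factors and their receptors were compared across the tissues for 33 pairs. Among the ligands tested 9 of 32 were higher in skin and 11 in the ganglion, and among the receptors 8 of 31 and 10, against 19.1% and 18.4% of all genes in these directions. In 6 pairs the ligand was higher in skin and the receptor in the ganglion: Ntf3 with Ntrk3, Ntf5 with Ntrk2, Gdnf with Gfra1, Nrtn with Gfra2, Lif with Lifr and Sema3d with Plxna4. How many such pairs the calls of single members alone would give was not tested. Ntf3, neurotrophin-3, was at 1.30, 2.41, 2.58 and 1.65 cpm in skin and 0.209 to 0.307 cpm in the ganglion, and its receptor Ntrk3 at 7.13 to 9.16 cpm and 91.4 to 102 cpm. Nrtn, neurturin, was at 6.31, 11.3, 10.7 and 9.77 cpm in skin and 0.471 to 0.768 cpm in the ganglion, and Gfra2 at 18.2 to 25.7 cpm and 70.8 to 114.9 cpm. Gdnf was at 2.08 ± 0.386 cpm in skin and 0.180 ± 0.128 cpm in the ganglion, and Gfra1 at 21.6 ± 2.33 and 184 ± 31.9 cpm.

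Artn, artemin, a growth factor of the GDNF family, was too low to call, at 0.283 ± 0.1096 cpm in skin and 0.162 ± 0.0713 cpm in the ganglion. The reverse arrangement, ligand in the ganglion and receptor in skin, was found for Hgf with Met and Nppb with Npr1. Hgf, hepatocyte growth factor, was at 9.68, 11.7, 12.4 and 8.60 cpm in the ganglion and 0.788 to 2.33 cpm in skin, and Met at 5.37 to 6.38 cpm and 48.8 to 54.3 cpm. Bdnf and its receptor Ntrk2 were both higher in the ganglion. Edn1 and its receptor Ednra, which serve itch and vessel tone, were both higher in skin, Edn1 at 15.1 to 26.3 against 0.419 to 1.08 cpm.

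The cytokines known for itch differed in level under the vehicle. Tslp, the keratinocyte cytokine that MC903 is known to raise, was at 1.07, 1.49, 0.750 and 0.930 cpm in skin and at 0.105, 0.325, 0 and 0.205 cpm in the ganglion (log2 2.67 ± 0.61). These are 18 to 36 reads per skin sample and 0 to 6 per ganglion sample. In the vehicle samples of day 5 the log2 difference of Tslp was 0.39, with neither call. Crlf2, a chain of the Tslp receptor, was at a like level, 4.31 ± 0.636 and 3.14 ± 0.584 cpm. Il31 had 0 reads in all 8 samples. Il33, an alarmin, was at a like level with 22.7 ± 2.12 cpm in skin and 30.8 ± 6.77 cpm in the ganglion. Il4 was higher in the ganglion, at 19.4, 17.2, 20.9 and 19.2 cpm against 0.413 to 1.24 cpm, which for a T helper cytokine needs its surroundings: Il4 (chr11:53602982-53618669, minus strand, mm10) ends 1014 bases from the 3′ end of Kif3a, a kinesin gene on the plus strand that was at 243 ± 10.8 cpm in the ganglion and 24.2 ± 3.50 cpm in skin. The strand setting of the counting was not given, so reads beyond the end of Kif3a could not be separated from Il4 reads, and their part was not tested.

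**Figure D4:**
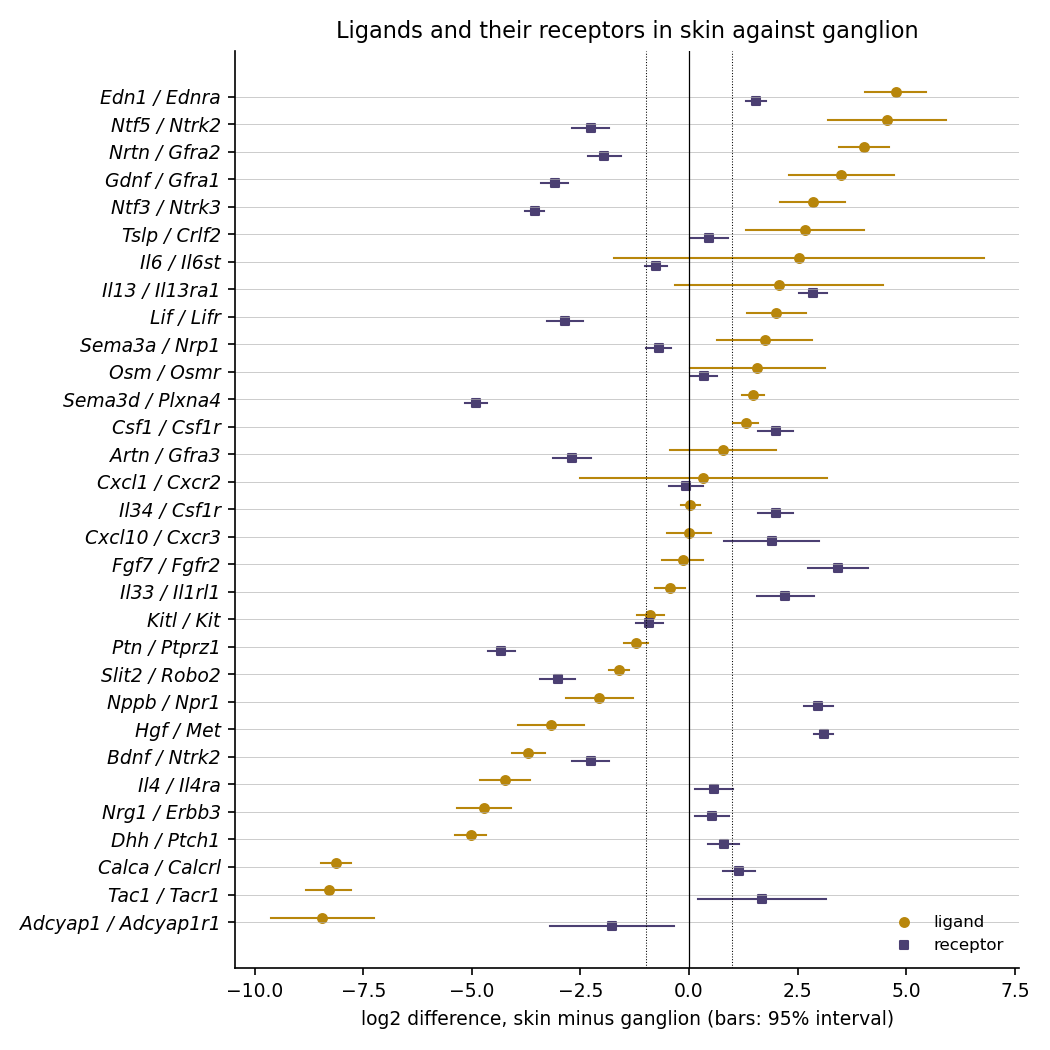
Log2 difference, skin minus ganglion, of the ligand (circle) and receptor (square) of 31 of the pairs with both tested, ordered by the ligand, with bars for 95% intervals and dotted lines at 2-fold. Calca, Tac1 and Adcyap1 lie far to the ganglion side, the first pair with receptors above 0 and Adcyap1 with Adcyap1r1 at -1.78, or -0.41 without ganglion replicate 1.

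Genes of energy metabolism and the proteasome were mostly at a like level. The 10 genes of highest TPM among protein-coding genes at a like level were all mitochondrial: mt-Co2, mt-Co3, mt-Co1, mt-Atp6, mt-Nd1, mt-Nd4, mt-Cytb, mt-Atp8, mt-Nd4l and mt-Nd2. mt-Co2, a subunit of cytochrome oxidase, was at 5431, 5439, 5484 and 6527 cpm in skin and at 5194, 4782, 4532 and 5447 cpm in the ganglion. Of 36 nuclear genes of respiratory complex I 35 were at a like level. Over all 36 the log2 differences ran from -0.97 for Ndufa4 to 0.53 for Ndufs6. Of 17 genes of ATP synthase 13 were, and of 32 mitochondrial transcripts 19. These compare with 23.9% of all genes tested. The call needs 1 cpm in all 8 samples, and of the 14114 genes that met this 6090 were at a like level, a higher share. Proteasome genes were at a like level in 34 of 39 cases. The 3 that were called apart were the immunoproteasome subunits Psmb8 (16.7 ± 2.51 against 4.82 ± 1.19 cpm) and Psmb9 (4.57 ± 0.757 against 1.44 ± 0.846 cpm, not called without skin replicate 2 or 3 or ganglion replicate 1, 3 or 4, at log2 1.51 to 1.67), higher in skin with the antigen-presenting genes H2-Aa and Cd74, and the germ-cell subunit Psma8, higher in the ganglion at 1.08 to 1.406 cpm, and Psmd5 and Psmd8 passed neither call, with Psmd8 called higher in skin without skin replicate 2 (log2 1.22).

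Among nuclear genes at a like level with the highest TPM, a ranking added after the values were seen, were Tmsb4x, a regulator of actin, Actg1, cytoplasmic actin, Psap, the lysosomal prosaposin, Cox6a1 and Atp5b. Atp5b, a subunit of ATP synthase, was at 1383, 1124, 1208 and 1424 cpm in skin and at 1156, 1235, 1270 and 1225 cpm in the ganglion (log2 0.07, 95% interval -0.21 to 0.35). Of 19 reference genes often used to normalize, 10 were at a like level and 5 were higher in skin. Tbp (16.5 ± 1.21 and 16.9 ± 1.78 cpm), Ipo8 (73.7 ± 6.72 and 77.01 ± 2.20 cpm) and Ppia (622 ± 81.4 and 670 ± 13.6 cpm) were nearly level. Actb, cytoplasmic actin, was 2.03-fold higher in skin at 1650 ± 182 against 815 ± 61.6 cpm and Hprt 1.76-fold higher in the ganglion, neither passing either call, and B2m was 3.93-fold higher in skin.

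Translation genes were not common ground. Of 82 ribosomal protein genes 79 were higher in skin, against 19.1% of all genes, and none in the ganglion, with a median log2 difference of 2.03. Rplp0, a stalk protein used as a reference gene, was at 1008, 858, 913 and 1032 cpm in skin and at 152, 176, 160 and 148 cpm in the ganglion (log2 2.58 ± 0.11, edgeR quasi-likelihood 2-fold test, Benjamini-Hochberg adjusted p = 1.55e-07). Rpl15 and Rpl22l1 did not pass, at 1.97-fold and 2.28-fold, nor did Rpl7l1, and Rpl22l1 was called without skin replicate 2 or ganglion replicate 1 (log2 1.24 to 1.31). Together the genes took 2.08% ± 0.0847 of reads on genes in skin and 0.518% ± 0.0522 in the ganglion (n = 4 each), which differed by an exact 2-sided permutation test at p = 0.0286, the smallest that 4 against 4 samples allow, and at 0.0457 after Benjamini-Hochberg adjustment over 8 library measures. The elongation factor Eef1a1 moved with them, at 3952 to 5495 cpm in skin and 1087 to 1315 cpm in the ganglion. Many of these genes have processed pseudogenes of near-identical sequence. Of 2606 processed pseudogenes tested, of any parent gene, 707 (27.1%) were called higher in skin and 106 (4.07%) in the ganglion, and how reads of 50 bases were shared between genes and pseudogenes was not tested. Reads on no annotated gene were 7.57% to 12.3% in skin and 14.02% to 16.4% in the ganglion.

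The classes differed in gene structure. The genomic span of protein-coding genes was at the median 16 kb for those higher in skin, 34.5 kb for those higher in the ganglion, 24.5 kb for those at a like level and 22.4 kb over all 17603. Genes over 100 kb made up 26.3% of the ganglion class and 8.35% of the skin class. Skin genes also lay in clusters, with runs of neighbouring tested protein-coding genes that were all called higher in skin. The longest was 50 genes from Krt20 to Krt36, the type I keratin and keratin-associated genes of chromosome 11, followed by 41 genes from Sprr1b to S100a11 in the epidermal differentiation complex of chromosome 3, 29 on chromosome 16 and 26 from Krt80 to Krt18 on chromosome 15. The longest ganglion runs were 19 zinc finger and related genes on chromosome 2 and 13 protocadherin alpha genes on chromosome 18, whose members share exons or near-identical sequence. A run of 6 on chromosome 7 ended in Mrgpra3. Of 1231 antisense genes 17.6% were higher in the ganglion and 7.47% in skin, and of 1103 long intergenic RNAs 20.9% and 11.2%, against 18.4% and 19.1% of all genes, so that the ganglion shares were near those of all genes and the skin shares below them.

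The classes differed in the CpG content of their promoters, and most promoters of every class held no TATA box near the start. A window from 250 bases before to 50 after the start was matched for 13542 of 17603 protein-coding genes. The median ratio of observed to expected CpG was 0.477 in the skin class, 0.652 in the ganglion class, 0.810 in the like-level class and 0.697 over all. CpG-rich windows, with a ratio of 0.6 or more and at least 50% GC, were 39.6%, 53.9% and 77.3% of the classes and 57.2% of all. A TATA box (TATAAA on either strand) 15 to 40 bases before the start was found in 6.56% of skin promoters, 1.55% of ganglion promoters, 0.462% of like-level promoters and 2.47% of all. In the same class order, the AP-1 letters TGANTCA were found in 9.67%, 4.95% and 3.99% of windows against 5.84% of all. The cyclic AMP response element was found in 1.61%, 2.96% and 3.67% against 2.77%. The GC box was found in 48.5%, 56.2% and 66.8% against 56.9%, and the CCAAT box in 38.3%, 36.7% and 39.1% against 38.3%. The left part of the element bound by the neuronal repressor REST was rare in every class, in 0.394%, 0.903% and 0.323% against 0.443%. Among skin genes over 8-fold higher, a class added after seeing the data, 22.2% were CpG-rich and 11% held the TATA box, and among ganglion genes over 8-fold higher 44.2% and 1.98%. These are shares of letters, and genes of 1 cluster share sequence.

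**Figure D5:**
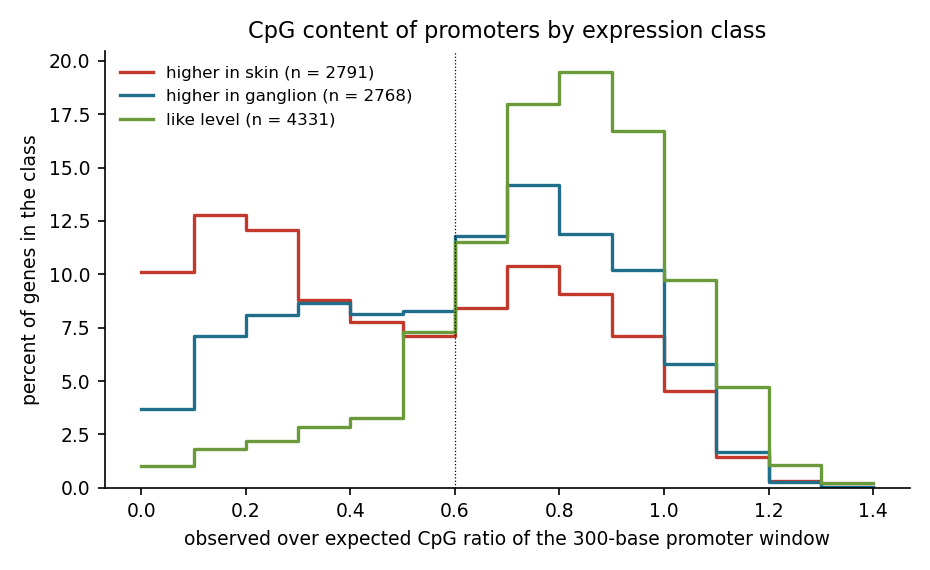
Share of promoters (y, percent of the class) by the observed over expected CpG ratio of the 300-base window (x, bins of 0.1) for genes higher in skin, higher in the ganglion and at a like level, with a dotted line at 0.6. Skin genes have most of their promoters at low ratios, like-level genes peak at high ratios (medians 0.477 and 0.810), and ganglion genes lie between.

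Vehicle samples of day 5, 3 of skin and 3 of ganglion from wild-type mice without injection, gave separate samples of the same contrast. There 3981 of 25172 genes tested (15.8%) were higher in skin and 3799 (15.1%) higher in the ganglion by the same 2-fold test. Of 4771 day 1 skin genes tested again 3450 (72.3%) were called in the same direction and 4733 (99.2%) had the same sign, and of 4593 ganglion genes 3464 (75.4%) and 4568 (99.5%). Called in the opposite direction were 0 skin and 3 ganglion genes. Of 6090 genes at a like level 4130 (67.8%) met that call again and 27 were more than 2-fold apart. Salivary markers summed to 28994 to 70922 unscaled cpm in the day 5 skin samples and pituitary markers to 51.8 to 11571 cpm in the ganglion samples, so both extras recurred.

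Samples labelled vehicle of day 12 could not serve as a further replicate. Of the 5 labelled skin, replicates 1, 3 and 4 had Krt14 at 0.569, 0.850 and 1.12 cpm (unscaled) with Prph at 1110 to 1203 cpm, the pattern of ganglion. Of the 4 labelled ganglion, replicate 1 had Krt14 at 1502 cpm with Prph at 0.0849 cpm and replicate 2 had both, at 461 and 448 cpm. With the labels as given, edgeR's quasi-likelihood test called 0 of 26820 genes (0%) at an adjusted p under 0.05, and 751 at an unadjusted p under 0.05. The samples were not regrouped. In the library labelled ganglion replicate 3 of day 12 Krt14 was at 0.242 cpm, where the 4 ganglion samples of day 1 were at 5.07 to 7.59 cpm on the same unscaled measure.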

How the data were processed

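The deposited values are raw read counts per Ensembl gene, with no normalization. Per the labels and the study's methods, the authors made poly(A) libraries, sequenced single-end reads of 50 bases, mapped them to mm10 with Bowtie2 and TopHat and counted reads on genes with htseq-count. The strand setting was not given in the sources used here. Tally lines naming no gene were left out of library sizes (7.57% to 12.3% of reads in skin and 14.0% to 16.4% in the ganglion fell on no gene). Of 46078 gene identifiers 45229 matched GENCODE M21 (GRCm38), which supplied symbols, spans and exon lengths for TPM.

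Genes with at least 10 reads over the 8 samples were fitted with edgeR 4.0.16 (R 4.3.3) by TMM scaling and the quasi-likelihood F test, and tested against a 2-fold difference with glmTreat, with Benjamini-Hochberg adjustment over all genes tested. A threshold of 0.05 was used. Intervals cover 95% and come from the same fit. Groups were taken from the labels, 4 skin against 4 ganglion samples. Folds against a tissue with 0 reads in every sample were computed against a floor of 3 reads per sample, that is 0.163 cpm in the ganglion and 0.136 cpm in skin, and cover counting error only. Day 5 and day 12 vehicle samples were fitted separately. Alternatives were RLE, upper quartile and total-count scaling, 2 other filters, DESeq2 1.42.0, limma 3.58.1 (voom), a test against 4-fold, each sample left out, and a replicate block. The methods were tested on simulated data, in which far fewer genes differed than between these tissues. Scaling under so many differences was therefore not tested there. Mouse sequences are from RefSeq on GRCm38.p6.

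The comparison, its gene lists and pairs were chosen with earlier results of these data known. Genes were named by rule: the 10 of highest TPM in each class, and in each list the members of highest level, of largest difference and those against the rest. The nuclear like-level ranking, the promoter class over 8-fold and the fits without skin replicate 4 or ganglion replicate 1 were chosen after seeing the data. A list is described by its count of calls and its median log2 difference beside those over all genes, with no set test. Some genes of these lists are counted in them but not reported here by name.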

Additional observations from a re-analysis of the deposited data

Results flagged for a closer look

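In 402 groups of 4 samples the highest or lowest sample was compared with the others by Dixon's ratio, and 50 had a sample far from the rest where chance gives about 5%. Values in one sample are not independent of each other.

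Skin replicate 4 was apart in the share of reads on its 10 highest genes (17.1%) and on its 100 highest genes (32.8%), in the salivary gland sum (143338 cpm) and in Amy1 (36653 cpm). The same sample was high in the T cell sum (79.2 cpm) and Trac (11.5 cpm), in Krt18 (99.8 cpm), a keratin of simple epithelia such as glands, and in Sox10 (21.1 cpm), Pecam1 (50.1 cpm), mt-Co2 (6527 cpm), Cx3cr1 (4.03 cpm), Hgf (2.33 cpm), S100a9 (1.71 cpm) and Krt222 (1.499 cpm), and low in Il4 (0.413 cpm). The part of the salivary tissue in these was not tested.

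Ganglion replicate 1 was apart in the pituitary sum (4185 cpm) with Gh (3215 cpm) and Prl (534 cpm), in the neuropeptide sum (1556 cpm) with Scg2 (498 cpm) and Sst (23.2 cpm), in Cpe (1946 cpm), Adcyap1r1 (116.3 cpm), Col25a1 (53.6 cpm) and Slc1a3 (131.2 cpm), and in the neutrophil sum (128.8 cpm) with S100a9 (22.1 cpm). It was low in genes of Schwann cells and nerve, Sox10 (41.97 cpm) and Col28a1 (70.7 cpm), and in Anxa5 (970 cpm).

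Ganglion replicate 2 was highest in antigen presentation, with the Langerhans and dendritic cell sum at 476 cpm, H2-Aa at 143 cpm, Cd74 at 182 cpm and Psmb9 at 2.70 cpm, and in keratinocyte and hair genes, with Krt14 at 7.41 cpm, Krt33a at 11.95 cpm, Krtap15 at 15.4 cpm, Krtap21-1 at 19.4 cpm and Krtap22-2 at 5.25 cpm. Pcdh12 (2.001 cpm) and Psma8 (1.406 cpm) were also highest there.

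Skin replicate 1 was high in the epidermal transcription factor sum (2855 cpm), Cldn1 (557 cpm), Runx1 (67.7 cpm) and Pou4f1 (1.72 cpm) and low in Lifr (70.3 cpm), Cma1 (8.39 cpm) and Adcyap1r1 (7.28 cpm). Ganglion replicate 4 was high in Gfra2 (114.9 cpm) and Shox2 (23.9 cpm).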

How the results depend on the processing

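The call of a difference, the 2-fold call and the like-level call stayed within 1.5 times their count under each scaling, filter and tool tried (DESeq2 gave 16380 and 7706 genes for the first 2, voom 16964 for the first), except for 2 stricter definitions: a test against 4-fold called 4968 genes (2384 higher in skin and 2584 in the ganglion), and an interval within 0.5 on the log2 scale left 1890 genes at a like level. The share of 2-fold calls that were higher in skin ran from 50.1% to 52.1%. Leaving out each sample gave 15847 to 16464 genes that differ, 9034 to 9314 more than 2-fold apart and 5709 to 6076 at a like level, on day 5 11003 to 13259 and on day 12 as labelled 0 in every case. Replicate numbers were not taken as pairs, since the labels do not tie them to a mouse. Deviations of same-numbered samples correlated at -0.0108 to 0.0427 over 14003 genes, and of different-numbered samples at -0.0722 to 0.0604. Samples of 1 mouse need not share deviations across these tissues, so these values cannot show whether samples were paired. With a replicate block 16139 genes differed, 9101 were more than 2-fold apart and 5966 at a like level, 12214 differed on day 5 and 0 on day 12. Library measures could not be retested without a sample, because the exact permutation test of 3 against 4 samples cannot go below 0.0571. Of 174 named genes none changed sign where called. By the 2-fold test calls were lost with DESeq2 for Dcn, Egr2, Hbb-bs, Hbb-bt, Pcdh12, Psmb9 and S100a9, with the block for Amy1 and S100a9, and on leaving out a sample for Psmb9 and Pcdh12 (5 of 8 samples each), S100a9 and Krt18 (4 each), Hbb-bs (skin replicate 2 and ganglion replicate 4), Hbb-bt (ganglion replicate 4) and Amy1 (skin replicate 4). Krt18 was at log2 2.48 to 4.32 without skin replicate 4 or ganglion replicate 2, 3 or 4, and Hbb-bs at -1.90 to -1.68. Psmd8, Rpl22l1 and Slc4a1 gained a call. The cause was not tested. Promoter shares moved little with classes from total counts only (39.2%, 53.9% and 77.2% CpG-rich). The signs of list medians held under all 4 scalings, apart from the proteasome, whose median was 0.04 with TMM and 0.00 with upper quartile factors. Genes of a few reads per sample, such as Artn, are limited by depth.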

Other observations

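The genes below were chosen after their values were seen. Il34, a ligand of the macrophage receptor Csf1r, was at a like level, at 18.4, 20.4, 20.0 and 18.5 cpm in skin and 19.9, 17.7, 19.2 and 18.99 cpm in the ganglion, while Csf1r itself was at 117.1 ± 16.6 and 29.3 ± 7.66 cpm. Adcyap1r1, the receptor of the neuropeptide PACAP, was at 116.3 cpm in ganglion replicate 1 and 14.4 to 17.8 cpm in replicates 2 to 4, against skin at 7.28 to 13.7 cpm.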
